A study of Mus musculus with 686 samples.

Results

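The miR-99, miR-100 and miR-125 families were followed through 13 mouse tissues as 5 mature miRNAs, mmu-miR-99a-5p, mmu-miR-99b-5p, mmu-miR-100-5p, mmu-miR-125a-5p and mmu-miR-125b-5p, written below without the species prefix. They were taken by name and not by any measured value, and they are 5 of the 1964 miRNAs that the deposited miRNA table lists. Small RNA sequencing of 686 libraries from female BALB/cAnNTac mice gave their counts. Mice of 3 or 8 months were flown to the International Space Station (FL), kept on Earth in flight hardware with the flight environment matched (HGC, habitat ground control), or kept in standard cages (VGC, vivarium ground control). Live animal return (LAR) covered 348 libraries, 114 of FL, 113 of HGC and 121 of VGC, from mice that came back alive after 39.5 days on the station and were dissected 2 to 4 days after splashdown, or from controls on the same timeline. The other 338 libraries (TERM), 115 of FL, 114 of HGC and 109 of VGC, came from mice killed on orbit 22 to 24 days after launch or from their controls, whose carcasses were frozen whole and thawed for dissection, while the spleen was taken fresh into RNAlater. Groups of 1 tissue, arm and extraction held 2 to 10 libraries, brain of LAR and pancreas of TERM came from mice of 3 months alone, and equal mouse numbers in different arms are different animals. The tissues were brain, heart, diaphragm, kidney, liver, lung, pancreas, spleen, thymus, brown fat (BAT) and the gonadal (GAT), mesenteric (MAT) and subcutaneous (SCAT) white fat depots.

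A miRNA leads Argonaute to messenger RNAs that pair with its seed, bases 2 to 8 from the 5′ end, so miRNAs with 1 seed can act on overlapping targets. miR-125 is the vertebrate relative of lin-4 of the worm, which together with let-7 sets the timing of development, and the miR-99 and miR-100 group is known for sites in the messenger RNA of the growth regulator mTOR. In mouse, as in other vertebrates, hairpins of both families lie beside let-7 hairpins. miR-125b is well known in brain and in blood cell formation. The sequences below are shown because both the family and the genomic source of a count are read from them. They are from RefSeq at build GRCm38.p6, with the seed in capitals.
miR-99a-5p: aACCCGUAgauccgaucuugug
miR-99b-5p: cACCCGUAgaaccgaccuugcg
miR-100-5p: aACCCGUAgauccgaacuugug
miR-125a-5p: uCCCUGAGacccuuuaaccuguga
miR-125b-5p: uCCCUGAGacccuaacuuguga
miR-351-5p: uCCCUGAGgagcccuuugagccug
miR-125b-1-3p: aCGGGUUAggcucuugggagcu
miR-125b-2-3p: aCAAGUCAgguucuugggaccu

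Positions are counted from 1 at the 5′ end. miR-99a-5p and miR-100-5p were identical at 21 of 22 positions and differed by U16A. miR-99b-5p differed from miR-99a-5p at 4 positions (A1C, U11A, U16C and U21C), none of them in the seed. miR-125a-5p and miR-125b-5p matched at 15 of the 22 positions compared, with every difference at or after position 14 (U14A, U15A, A16C, A17U, C18U, C19G and U22A). The miR-125 seed is also that of miR-351-5p, which lies on chromosome X, and of miR-6367 and miR-6394, which had summed counts of 2 and 5 over all 686 libraries and are left aside. Of the 5 members, miR-125b-5p alone carried fractional counts, in 351 libraries, as arise when a read is divided between places.

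The members come from 3 clusters, given here in RefSeq GRCm38.p6, which is not the GRCm39 build of the deposited counts. On chromosome 9, Mir100 (chr9:41531425-41531504), Mirlet7a-2 (chr9:41536716-41536811) and Mir125b-1 (chr9:41581926-41582002) lie within introns of the noncoding RNAs 3110039I08Rik and Gm49317 and span 50578 bases. On chromosome 16, Mir99a (chr16:77598936-77599000), Mirlet7c-1 (chr16:77599657-77599750) and Mir125b-2 (chr16:77646273-77646343) lie in introns of Mir99ahg and span 47408 bases. On chromosome 17, Mir99b (chr17:17830188-17830257), Mirlet7e (chr17:17830352-17830444) and Mir125a (chr17:17830812-17830879) sit within 692 bases of the protein coding gene Spaca6, the first pair in an intron and Mir125a over an annotated exon. The mature miR-125b-5p of chromosome 9 and that of chromosome 16 have the same sequence, so its count cannot be assigned to a locus, while the opposite strands miR-125b-1-3p and miR-125b-2-3p differ and can.

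Counts on miRNAs ran from 0.181 to 30.5 M per library (M, mega), with a median of 3.88 M. Tissue marker miRNAs had their highest or second highest median in the labelled tissue. A comparison of profiles over 718 other miRNAs placed 166 libraries nearest to a tissue other than their label, among them 46 of 57 from MAT, 20 of 60 from BAT and 0 of 25 from brain. Sequencing pools in which more than 1 in 3 libraries did so numbered 11 of 44 and held 168 libraries. They held 13 of the 57 MAT libraries, so leaving them out keeps most MAT libraries with another tissue's profile. Calls between arms, ages and extractions that changed without these pools are given both ways, and no library was relabelled.

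Levels are CPM, the counts of a miRNA after each library was scaled to the same total of miRNA counts, so they are shares of the reads and, as each miRNA is read whole, need no correction for length. Together the members made up 0.130% of miRNA counts in the median spleen library and 1.03% in the median GAT library. miR-99a-5p was the most abundant of them in each tissue. Its median was highest in GAT at 7530 CPM (range 1307 to 21917, n = 60), followed by heart at 6421 CPM (829.1 to 11868, n = 50) and SCAT at 6000 CPM (697 to 12703, n = 58). Kidney (4779 CPM), lung (4091), pancreas (4029), brain (3859), BAT (3275), MAT (3142) and diaphragm (2841) formed the middle of its order. The lowest medians were those of thymus (1913 CPM), liver (1681 CPM) and spleen, where it stood at 811 CPM (337 to 7619, n = 47). The ranges of the libraries overlapped between all these tissues, and the highest median was 9.28 times the lowest.

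miR-99b-5p, its seed partner from chromosome 17, had its highest medians in GAT (1248 CPM, range 66.6 to 6460), brain (1138 CPM, 309 to 3115, n = 25) and lung (1048 CPM, 58.1 to 4611, n = 58). SCAT (634 CPM) and kidney (631 CPM) came next. Its lowest was liver at 82.7 CPM (27.8 to 565, n = 58), a fold of 15.1 under GAT. miR-100-5p was the rarest of the seed group in all tissues, from 403 CPM in GAT (40.4 to 1598) and 301 CPM in brain (75.2 to 950) to 60.4 CPM in pancreas (17.1 to 927, n = 39) and 58.1 CPM in liver (21.8 to 265), a fold of 6.94. Although it differs from miR-99a-5p by 1 base, its place in kidney was the tenth of 13 (89.9 CPM) where that of miR-99a-5p was the fourth.

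Both miR-125 members had their highest median in brain, where 20 of the 25 libraries were of 3 months. At 8 months, with 5 brain libraries, GAT lay above brain in miR-125b-5p (966 and 589 CPM) and miR-125a-5p (157 and 129 CPM). Over both ages the medians were as follows. miR-125b-5p had a median of 1153 CPM there (258 to 3043), then 820 CPM in GAT (52.6 to 4409), 570 CPM in SCAT and 568 CPM in heart, and it was lowest in liver at 89.2 CPM (37.7 to 648), a fold of 12.9. miR-125a-5p had 240 CPM in brain (54.8 to 840), 144 CPM in GAT (11.48 to 782), 122 CPM in lung and 119 CPM in kidney, and 14.5 CPM in liver (4.12 to 108), a fold of 16.5. Spleen was next to last for both, at 177 CPM for miR-125b-5p and 30.0 CPM for miR-125a-5p. On the log2 scale the tissue medians of the members spanned 2.77 (miR-100-5p) to 3.96 (miR-125a-5p), against a median span of 4.18 over 602 miRNAs with at least 10 CPM in some tissue.

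**Figure D1:**
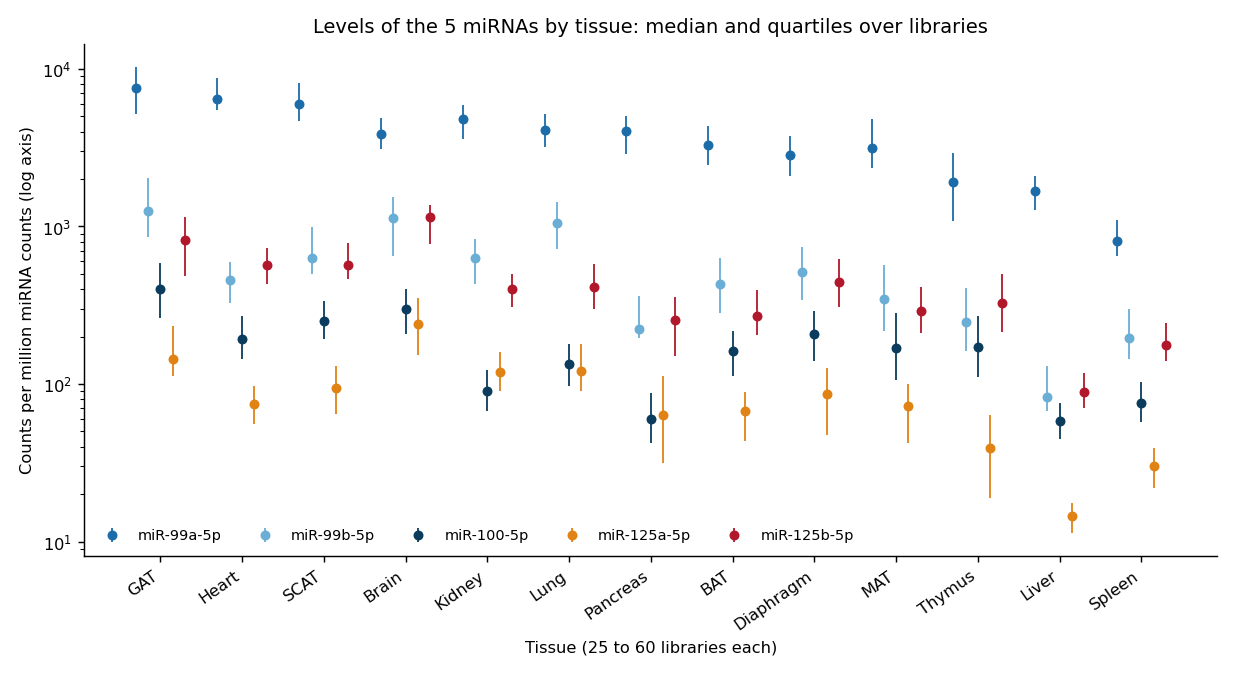
Level of each of the 5 members in 13 tissues, in CPM on a log axis, with the median as a point and the quartiles as bars. The tissue medians of miR-99a-5p run from 811 CPM in spleen to 7530 CPM in GAT, and those of miR-125a-5p from 14.5 CPM in liver to 240 CPM in brain.

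Neighbours in each order were compared within mice that gave both tissues, by a paired permutation test of log2(CPM + 1) adjusted over the 60 neighbouring pairs. Of these, 11 differed past an adjusted p of 0.05, so most neighbours could not be ordered beyond their spread. Spleen and liver, at the low end, differed in 4 of the members. Liver exceeded spleen by 0.82 ± 1.13 (SD, 36 mice) in miR-99a-5p (adjusted permutation p = 0.00228), whereas spleen exceeded liver by 1.07 ± 1.25 in miR-99b-5p, by 0.90 ± 1.02 in miR-125a-5p and by 0.81 ± 0.83 in miR-125b-5p (adjusted permutation p = 6e-04, 3e-04 and 3e-04). The other pairs that differed were SCAT over kidney and diaphragm over thymus in miR-99a-5p, lung over SCAT and MAT over thymus in miR-99b-5p, SCAT over diaphragm and lung over kidney in miR-100-5p, and pancreas over thymus in miR-125a-5p. With the mice left unpaired, that is, without the replicate block, 13 pairs differed. The order itself depended on the scale. With TMM-scaled counts, which weigh libraries against each other by the bulk of their miRNAs, heart was highest for miR-99a-5p, lung for miR-99b-5p and pancreas lowest for miR-100-5p, while brain stayed highest and liver lowest for both miR-125 members. Scaled to the counts of 7 RNA classes, brain was still highest for both miR-125 members, and heart was highest for miR-99a-5p and miR-100-5p and lung for miR-99b-5p. On that scale pancreas was lowest for miR-99b-5p, miR-100-5p and miR-125b-5p, liver for miR-125a-5p and spleen for miR-99a-5p.

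Each tissue was then set against the mean of the other 12 in edgeR, with TMM factors, a quasi-likelihood test and terms for arm and age. In LAR 48 of 65 member tests passed (26 higher and 22 lower), and in TERM 44 of 65 (25 higher and 19 lower). Over all miRNAs 45.0% of tests in LAR and 40.8% in TERM passed, so a call in this contrast is common. With the animal as a replicate block 48 passed in LAR and 41 in TERM, the latter of 60 tests since the brain animals of TERM gave no other tissue. The same direction was called in both extractions in 9 tissues for miR-100-5p and miR-125a-5p, 8 for miR-99b-5p and miR-125b-5p and 6 for miR-99a-5p. In bulk tissue, fewer cells of a type and less RNA per cell cannot be told apart.

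In brain, 4 of the members were higher and miR-99a-5p was not called. The log2 differences in LAR and TERM were 1.69 and 1.86 for miR-125a-5p (SE 0.20 and 0.22, edgeR adjusted p = 4.2e-15 and 1.7e-15), 1.67 and 1.502 for miR-125b-5p, 1.34 and 1.18 for miR-99b-5p and 1.05 and 0.76 for miR-100-5p, against 0.16 and 0.00 for miR-99a-5p. Heart was led by miR-99a-5p, which stood 1.69 and 1.46 above the other tissues (SE 0.13 and 0.15, edgeR adjusted p = 9.4e-31 and 2.3e-19), miR-125b-5p 1.37 and 1.11, and miR-100-5p 1.07 and 0.80. miR-99b-5p in heart was called in LAR (0.72) and had a difference of 0.31 in TERM that did not pass. Lung was led by the chromosome 17 pair, with miR-99b-5p 1.66 and 1.14 higher and miR-125a-5p 1.26 and 0.67 higher. Its miR-99a-5p (0.58) and miR-125b-5p (0.49) were called in LAR and had differences of 0.25 and 0.02 in TERM that did not pass. Its miR-100-5p had differences of 0.05 and -0.24, neither called.

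The fat depots differed from each other. All 5 were higher in GAT in both extractions, by 0.46 to 0.89 in LAR and 0.93 to 1.44 in TERM. SCAT was higher for miR-99a-5p (0.49 and 0.74), miR-100-5p (0.50 and 0.54) and miR-125b-5p (0.42 and 0.45), the 3 members of the chromosome 9 and 16 clusters, and not called for the chromosome 17 pair. BAT had no call in either extraction, with differences from -0.28 to 0.28. MAT had 5 lower in LAR (differences of -1.06 to -0.50) and 0 called in TERM (-0.34 to 0.29), and MAT is also the tissue whose libraries most often stood nearest to another tissue's profile. The part of these libraries in that gap was not tested.

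Liver and spleen were lower for all 5 members in both extractions. The differences in liver were -1.73 and -1.79 for miR-99b-5p and -1.72 and -1.79 for miR-125a-5p, but -0.40 and -0.39 for miR-99a-5p. Spleen was lowest in miR-99a-5p, at -2.09 (SE 0.19) in LAR and -1.39 (SE 0.20) in TERM. In thymus, the site of T cell maturation, miR-99a-5p (-0.72 and -0.70), miR-99b-5p (-0.63 and -1.01) and miR-125a-5p (-0.81 and -1.17) were lower, while miR-100-5p (0.31 and 0.14) and miR-125b-5p (-0.06 and -0.35) were not called. Kidney was lower in miR-100-5p (-0.84 and -0.73) and higher in miR-125a-5p (0.42 and 0.71), and in TERM alone miR-99a-5p (0.40) and miR-99b-5p (0.56) were also called higher, with differences of 0.21 and 0.15 in LAR. Diaphragm was higher in every member but miR-99a-5p, which had differences of 0.11 and 0.06 and was not called. In pancreas 3 members were lower in LAR and 5 in TERM, with miR-100-5p at -1.20 and -1.89.

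The balance between the chromosome 9 and 16 clusters was read in 2 ways that use no common counts. The first is the share of miR-99a-5p in the sum of miR-99a-5p and miR-100-5p, which differ by 1 base. The second is the share of miR-125b-2-3p in the sum of both miR-125b opposite strands. The median share of miR-99a-5p was 90.9% in thymus, 91.3% in spleen, 92.4% in diaphragm and 92.8% in brain, and 97.1% in heart, 98.2% in kidney and 98.6% in pancreas. The median share of miR-125b-2-3p was 31.8% in diaphragm (quartiles 25.9 and 52.3, n = 59), 33.0% in thymus (25.1 and 40.5, n = 58), 34.5% in spleen (27.9 and 42.0, n = 47) and 42.8% in brain (35.6 and 49.7, n = 25). It was 68.8% in kidney (65.2 and 75.8, n = 57), 70.7% in heart (61.9 and 74.0, n = 50), 82.8% in liver (79.0 and 86.9, n = 58) and 83.2% in pancreas (74.5 and 90.0, n = 39). The second share rests on few reads, with medians per library of 95 for both strands together in pancreas and 2128 in brain, and counts summed over the libraries of a tissue gave other values, 42.5% in diaphragm and 73.5% in pancreas. The tissues low in the first share were low in the second, with Pearson's r of 0.90 over the 13 tissues and 0.88 without the pools named above. Liver was next to the highest in the second share and at 96.7% in the first. All tissues share the same mice and library preparation, so this r is a description.

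**Figure D2:**
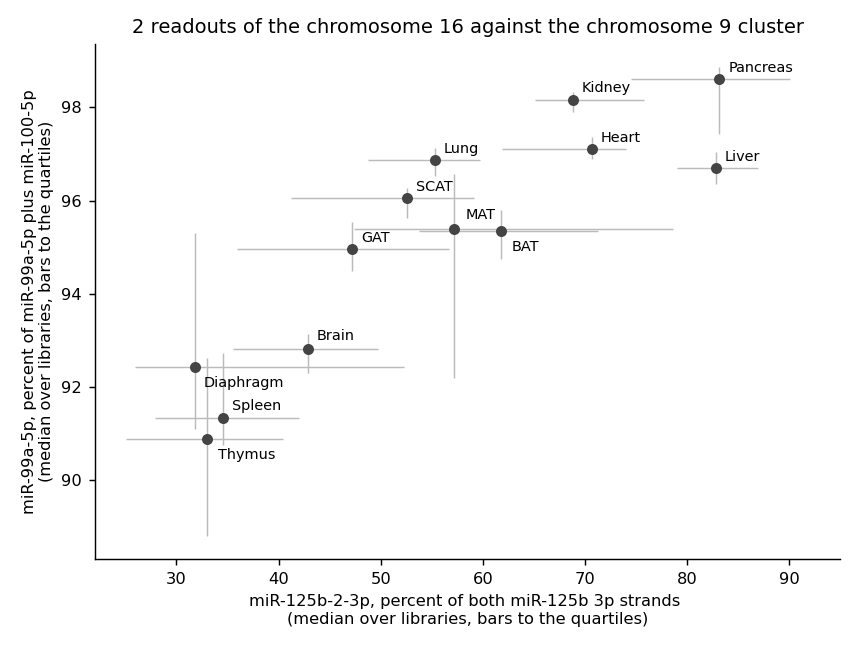
Each point is 1 of 13 tissues, with the median percent of miR-125b-2-3p among both miR-125b opposite strands on the horizontal axis, the median percent of miR-99a-5p among miR-99a-5p plus miR-100-5p on the vertical axis, and bars to the quartiles over libraries. Thymus lies at 33.0% and 90.9%, and pancreas at 83.2% and 98.6%.

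Across the tissue medians miR-99a-5p tracked the opposite strand of its own cluster, miR-125b-2-3p, with r = 0.85, and that of the other cluster, miR-125b-1-3p, with r = 0.34. miR-100-5p had r = 0.87 with miR-125b-1-3p of its own cluster and 0.45 with miR-125b-2-3p. miR-99a-5p and miR-100-5p themselves had r = 0.56. On chromosome 17, miR-99b-5p and miR-125a-5p had r = 0.95, and miR-99b-5p had no closer match among 601 other miRNAs. let-7e-5p, from the hairpin between them, had r = 0.97 with miR-125a-5p and 0.91 with miR-99b-5p. miR-99a-5p and let-7c-5p had r = 0.80, although mature let-7c-5p has a further hairpin on chromosome 15, and miR-100-5p and let-7a-5p, which also has other loci, had r = -0.31. Each r is over 13 tissue medians.

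Composition within animals was compared between neighbouring tissues, over 48 pairs of 4 measures. The test was passed by 5 pairs, and 10 passed without pairing by mouse. The share of miR-99a-5p over miR-100-5p was higher in GAT than in brain in 9 of 9 mice, by 2.81 ± 1.08 percentage points (SD, exact paired permutation p = 0.0039, adjusted p = 0.039). It was higher in kidney than in heart by 1.14 ± 2.28 points in 32 of 37 mice, in liver than in SCAT by 0.66 ± 1.80 points in 44 of 56 mice and in SCAT than in MAT by 1.34 ± 2.70 points in 32 of 55 mice. The fifth pair was the log2 ratio of miR-125b-5p to miR-99a-5p plus miR-100-5p, which was 0.42 ± 0.96 higher in diaphragm than in GAT. That ratio had its highest median in brain (-1.93) and its lowest in liver (-4.23). The chromosome 17 pair made up 20.8% of the 5 members in lung, 20.4% in brain, 17.0% in spleen, 6.19% in heart and 5.38% in liver. Within that pair miR-125a-5p stayed below miR-99b-5p in the median of each tissue, by log2 ratios of -2.92 in GAT to -2.0 in pancreas.

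The ratio of the strands of a hairpin spanned another range in each member. The 5p strand of miR-99a exceeded its 3p strand by a median log2 ratio of 7.04 in liver to 9.48 in heart. For miR-100 the ratio ran from 4.15 in spleen to 5.92 in GAT, and for miR-99b from 3.00 in spleen to 4.27 in diaphragm. miR-125b-5p stood 1.00 (liver) to 2.06 (diaphragm) above the sum of its 2 opposite strands. miR-125a-5p and miR-125a-3p were nearly level, from -0.11 in spleen to 0.72 in heart. The opposite strands of the let-7 hairpins between them were rare, with tissue medians of 2.44 CPM in liver to 25.0 CPM in brain for let-7e-3p, 1.49 CPM in spleen to 14.8 CPM in GAT for let-7c-1-3p and at most 1.49 CPM, in brain, for let-7a-2-3p.

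Summed by seed, the miR-99 and miR-100 group was dominated by miR-99a-5p, with a median share from 72.5% in brain to 92.7% in pancreas. miR-99b-5p held 21.2% in brain, 20.2% in lung and 4.90% in liver. miR-100-5p held 6.37% in diaphragm and 5.75% in brain, and 1.56% in kidney. The miR-125 seed was less uniform. miR-125b-5p held 80.0% in thymus, 78.2% in heart and 77.8% in brain, but 53.9% in kidney and 44.9% in lung. The remainder there was mostly miR-351-5p, the seed mate outside these families, with 38.5% in lung, 34.6% in spleen and 28.6% in kidney against 5.50% in pancreas and 2.18% in brain. Over the 13 tissue medians miR-351-5p had r = 0.24 with miR-125a-5p and 0.15 with miR-125b-5p.

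**Figure D3:**
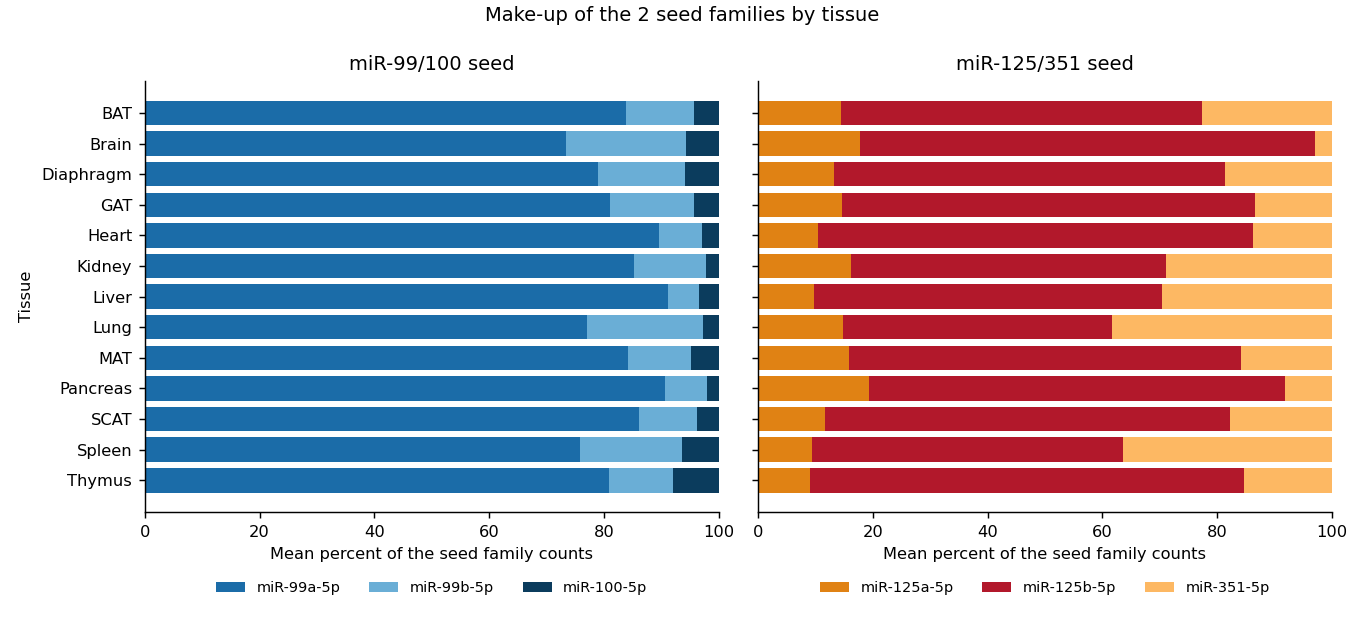
Mean percent of each miRNA in the summed counts of its seed, for the miR-99 and miR-100 seed and for the miR-125 seed with miR-351-5p, in 13 tissues. The mean share of miR-99a-5p is 73.3% in brain and 91.1% in liver, and that of miR-351-5p 3.00% in brain and 38.3% in lung.

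The miRNAs outside the clusters whose tissue medians were most like those of each member, by Pearson's r over 13 tissues, were let-7b-3p (0.87), miR-23b-5p (0.78) and let-7b-5p (0.76) for miR-99a-5p. For miR-99b-5p they were miR-877-5p (0.88), miR-320-3p (0.88) and miR-218-1-3p (0.86). miR-100-5p was nearest to miR-877-5p (0.86), miR-193b-5p (0.85) and miR-320-3p (0.83). miR-125a-5p was nearest to miR-218-1-3p (0.90), miR-328-3p (0.88) and let-7d-5p (0.85), and miR-125b-5p to miR-328-3p (0.89), miR-674-3p (0.89) and miR-877-5p (0.87). Among the members, the closest match of miR-125b-5p was miR-125a-5p (0.92).

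The comparison of FL with HGC asks what flight adds to flight housing, and that of HGC with VGC what the housing adds. No member passed edgeR's quasi-likelihood test in any of the 13 tissues. In FL against HGC, 0 of 65 tests were called in LAR, where 1.54% of all tests passed, and 0 of 65 in TERM, where 0.307% passed. At an unadjusted p under 0.05 there were 3 and 7 member tests, 4.62% and 10.8% of them where 12.3% and 9.17% of all tests lay under it, and DESeq2 called 0 and 0 (background 1.58% and 0.675%). The log2 differences of the members ran from -0.69 to 1.12 in LAR (median -0.03, median SE 0.36) and from -1.39 to 1.57 in TERM (median -0.05, median SE 0.38), beside medians of 0.01 over all miRNAs in both. In FL against VGC edgeR called 0 in LAR (background 0.736%) and 0 in TERM (0.712%). There 9 and 4 members had an unadjusted p under 0.05 (13.8% and 6.15%, with 11.3% and 9.77% over all tests), and DESeq2 called 1 and 0 (background 1.13% and 0.455%). In HGC against VGC it called 0 in LAR (0.176%) and 0 in TERM (0.251%), with 5 and 1 members at an unadjusted p under 0.05 (7.69% and 1.54%, with 11.4% and 9.29% over all tests) and 0 and 0 by DESeq2 (0.478% and 0.455%). The same fit was run on counts simulated for lung of LAR, with 10 libraries an arm and the same spread for every miRNA. It recovered 79% of the 2-fold and all of the 4-fold changes, with 100 miRNAs changed at each fold. Real groups held 2 to 10 libraries, and a log2 difference of 1.57 in TERM was not called. Differences above 2-fold could therefore pass unseen too.

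The member nearest to a call was miR-100-5p in pancreas of LAR. It had 19.7, 76.2 and 927 CPM as lowest, median and highest of 10 FL libraries, 42.9, 70.6 and 165 CPM in 8 of HGC, and 36.3, 59.8 and 80.2 CPM in 10 of VGC. The groups overlapped, with single FL libraries high. The log2 difference of FL from VGC was 1.58 (SE 0.48, edgeR adjusted p = 0.062), and DESeq2 gave 1.69 with an adjusted p of 0.022. DESeq2 called 4.18% of all miRNAs tested in pancreas in this comparison. Of the FL libraries 3 had another tissue's profile and 4 lay in the pools named above, of the VGC libraries 0 and 0. Without those pools 6 FL libraries had 19.7, 45.4 and 927 CPM, a median under that of VGC, and the difference was 1.58 (SE 0.50, edgeR adjusted p = 0.44). Without mouse number 14 it was 0.85 (SE 0.40, edgeR adjusted p = 0.22). In brain of LAR, with 4 libraries an arm, 4 members had an unadjusted p under 0.05 in FL against VGC. The largest was miR-125a-5p with a log2 difference of 1.45 (SE 0.59, edgeR adjusted p = 0.30), and the same 4 had none in TERM. The HGC libraries stood above VGC too, with miR-99b-5p medians of 1664 CPM in FL, 1707 CPM in HGC and 591 CPM in VGC. Its log2 difference was 1.38 for HGC from VGC (SE 0.42, edgeR adjusted p = 0.43) and 0.04 for FL from HGC (SE 0.42). In heart of LAR, miR-125b-5p had 472, 856 and 1230 CPM in 6 FL libraries and 255, 528 and 786 CPM in 6 of HGC, overlapping groups with a log2 difference of 0.91 (SE 0.40, edgeR adjusted p = 0.31). In heart of TERM its FL and HGC medians were 471 and 469 CPM. In the fit all 5 members lay lower in FL there (-0.79 to -0.03), while in mean log2(CPM + 1) 2 of them lay higher. The difference of miR-125b-5p between the LAR and TERM contrasts was 1.52 (SE 0.56, edgeR adjusted p = 0.146).

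All 5 members lay higher in FL than in HGC in brain, heart and liver of LAR and in pancreas and spleen of TERM, and lower in BAT, liver and thymus of TERM, both in the TMM fit and in mean log2(CPM + 1), with none of them called. In spleen of LAR the direction rested on the scale, with all 5 lower in the fit (-0.69 to -0.13) and all 5 higher in CPM (0.15 to 0.28). In thymus of TERM they had log2 differences of -0.40 to -1.39. miR-99a-5p had 493, 933 and 1839 CPM in 10 FL libraries, 577, 1405 and 7090 CPM in 9 of HGC and 430, 2471 and 8464 CPM in 9 of VGC. The lowest libraries of the arms were alike and the high ones were found in the controls. Its log2 difference from HGC was -1.33 (SE 0.54, edgeR adjusted p = 0.36) and that of miR-99b-5p -1.39 (SE 0.51, edgeR adjusted p = 0.34). In LAR 4 of the 5 lay higher in FL, by up to 0.83 in miR-99b-5p. Tested directly, the difference between the LAR and TERM contrasts of FL with HGC was called for 0 of 65 members by edgeR (background 1.04%), with 6 at an unadjusted p under 0.05 (9.23%, with 10.7% over all tests), while DESeq2 called 1, miR-99b-5p in thymus (background 1.23%).

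**Figure D4:**
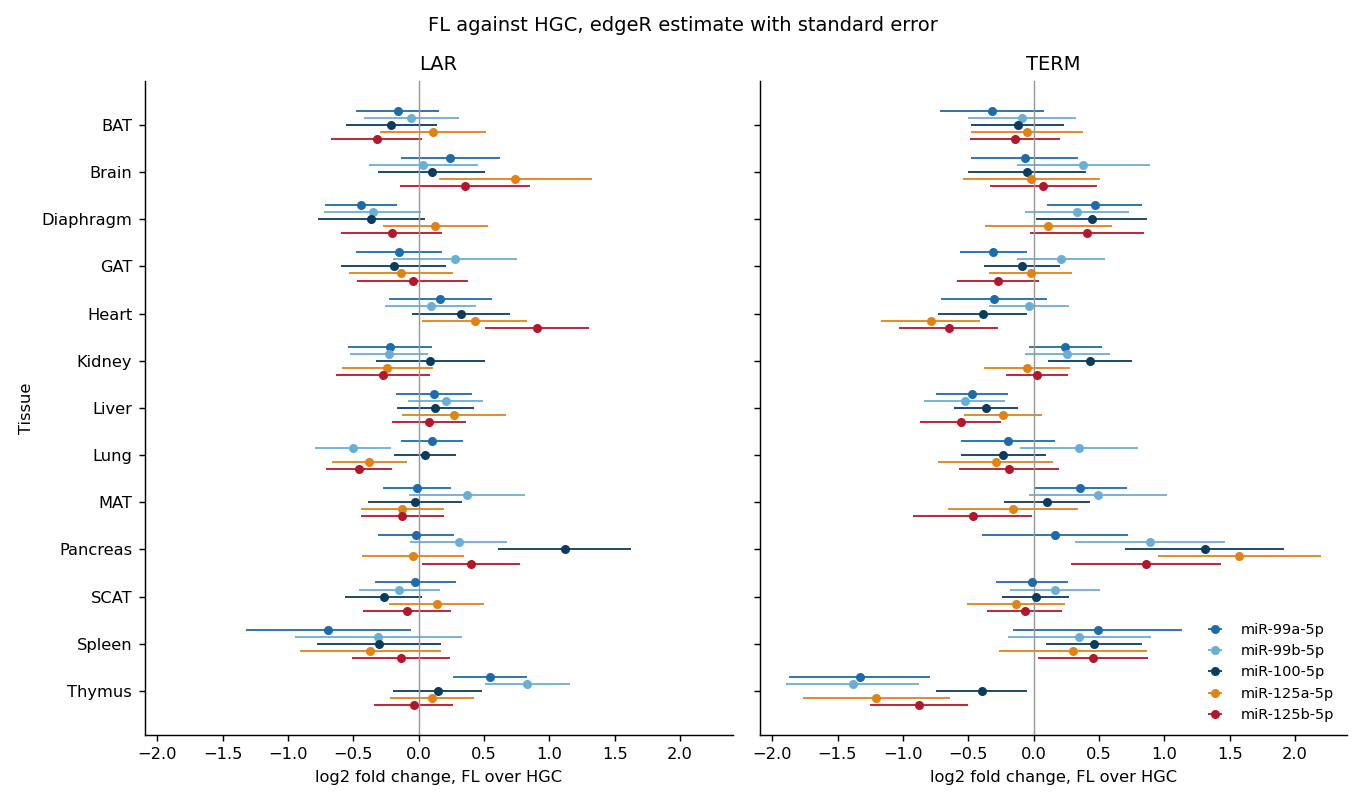
Log2 difference of FL from HGC for each member and tissue in LAR and in TERM, with bars of 1 standard error from edgeR. The estimates run from -0.69 to 1.12 in LAR and from -1.39 to 1.57 in TERM, and no member passed an adjusted p of 0.05.

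Composition did not separate the arms either. Of 52 differences between FL and HGC in each extraction, 0 passed a permutation test adjusted over the 52 (lowest adjusted p 0.338 in LAR and 0.237 in TERM), with 2 and 5 at an unadjusted p under 0.05. These were the same 4 measures in each of 13 tissues.

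Between mice of 8 and 3 months, with arm as a term, edgeR called 0 of 60 member tests in LAR (background 0.296%) and 0 of 60 in TERM (1.83%). At an unadjusted p under 0.05 there were 4 and 11 (6.67% and 18.3%, with 10.7% and 14.5% over all tests), and DESeq2 called 2 and 4 (background 0.943% and 3.71%). In thymus and spleen all 5 members lay higher at 8 months in both extractions. All 5 also lay higher in GAT and liver of TERM, and lower in liver and lung of LAR and in brain, kidney and SCAT of TERM. In thymus the log2 differences were 0.20 to 0.70 in LAR and 0.53 to 1.16 in TERM, beside medians of -0.16 and 0.02 over all miRNAs there. miR-125b-5p in thymus of LAR had 209, 308 and 635 CPM in 15 libraries at 3 months and 146, 544 and 1128 CPM in 15 at 8 months (log2 difference 0.62, SE 0.22, edgeR adjusted p = 0.13). In TERM it had 22.8, 199 and 461 CPM in 13 libraries and 126, 309 and 625 CPM in 15 (0.76, SE 0.29, edgeR adjusted p = 0.16). miR-99a-5p in thymus of TERM had 430, 948 and 4904 CPM against 773, 1425 and 8464 CPM (1.16, SE 0.40, edgeR adjusted p = 0.099). The ages overlapped in all of these. The DESeq2 calls in thymus were miR-100-5p (adjusted p = 0.046) and miR-125b-5p (0.0498) in LAR, and miR-99a-5p (0.039) and miR-99b-5p (0.047) in TERM. DESeq2 called 4.51% of all miRNAs tested in thymus of LAR and 8.12% in thymus of TERM. Without the pools named above, 4 members passed in thymus of LAR (miR-99a-5p 0.63, miR-100-5p 0.54, miR-125a-5p 0.73 and miR-125b-5p 0.65) and 2 in thymus of TERM (miR-99a-5p 0.89 and miR-125a-5p 1.51), where 12.5% and 8.22% of all miRNAs tested in thymus passed.

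In spleen the differences with age were 0.28 to 0.79 in LAR and 0.59 to 1.43 in TERM, beside medians of 0.04 and 0.02 over all miRNAs there. miR-125a-5p in spleen of TERM had 8.02, 26.3 and 31.3 CPM in 13 libraries at 3 months and 16.9, 30.9 and 142 CPM in 13 at 8 months, a log2 difference of 1.43 (SE 0.42, edgeR adjusted p = 0.11). The medians were close and the older mice held the high libraries. DESeq2 called this difference (1.45, adjusted p = 0.031) and that of miR-125b-5p in the same tissue (1.03, adjusted p = 0.041), where it called 1.76% of all miRNAs tested. The interaction of age with flight, which asks whether FL differed from HGC by another amount at 8 than at 3 months, was called by edgeR for 0 of 60 members in LAR (background 0.113%) and 0 of 60 in TERM (1.06%). At an unadjusted p under 0.05 there were 3 and 5 (5.00% and 8.33%, with 9.29% and 10.7% over all tests), and DESeq2 called 1 and 0 (background 0.788% and 1.96%). The DESeq2 call was miR-125a-5p in pancreas of LAR (-2.185, SE 0.70, adjusted p = 0.043), where it called 3.15% of all miRNAs tested.

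LAR was compared with TERM over all arms of a tissue, a contrast in which time in the study, return and the freezing and thawing of carcasses cannot be told apart. It called 6 of 65 member tests, where 6.81% of all tests passed, and DESeq2 called 8, where 8.62% did. The 4 in pancreas were higher in LAR, as were most tests there: 87 of the 134 miRNAs called in pancreas were higher and the median over all 843 tested was 0.44. miR-125a-5p had 28.9, 85.5 and 357 CPM in 28 libraries of LAR and 8.09, 26.4 and 159 CPM in 11 of TERM. miR-125b-5p had 140, 315 and 1968 CPM against 57.0, 118 and 465 CPM. miR-99a-5p had 1444, 4462 and 11173 CPM against 654, 1895 and 4109 CPM, and miR-99b-5p had 138, 260 and 1556 CPM against 62.7, 137 and 647 CPM. The groups overlapped in each, with TERM lower in its lowest, median and highest library. The log2 differences were 1.51 (SE 0.37), 1.23 (SE 0.34), 1.06 (SE 0.28) and 1.07 (SE 0.34), with edgeR adjusted p = 0.0029, 0.0080, 0.0074 and 0.024, and that of miR-100-5p was 0.73 and not called. Their size rested on the scale. With the total of 7 RNA classes in place of TMM factors the 4 were 2.75, 2.455, 2.10 and 2.32, and miR-100-5p was called too (2.00, SE 0.60, edgeR adjusted p = 0.0074).

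The pancreas of TERM came from mice of 3 months alone. In LAR the 15 pancreas libraries of that age had medians of 4440 CPM for miR-99a-5p, 258 for miR-99b-5p, 95.7 for miR-125a-5p and 313 for miR-125b-5p, each above the TERM median of the same age, and the 4 calls held with age as a term. By arm, the median of miR-125a-5p in LAR and TERM was 67.9 and 33.9 CPM in FL, 106 and 19.1 CPM in HGC, and 71.4 and 37.8 CPM in VGC. That of miR-99a-5p was 3833 and 2352 CPM in FL, 4695 and 1652 CPM in HGC, and 4761 and 3599 CPM in VGC. For miR-99b-5p the medians were 300 and 154 CPM in FL, 369 and 123 CPM in HGC, and 220 and 191 CPM in VGC. For miR-125b-5p they were 325 and 146 CPM in FL, 332 and 95.6 CPM in HGC, and 290 and 172 CPM in VGC, so LAR lay above TERM in each arm for all 4. The TERM medians are over 4 libraries in FL, 5 in HGC and 2 in VGC. Leaving out mouse number 2, which removes 3 libraries of each extraction, left none of the 4 called (log2 differences of 0.92 for miR-99a-5p, 0.93 for miR-99b-5p, 1.47 for miR-125a-5p and 1.03 for miR-125b-5p). Without number 3 the call of miR-125a-5p (1.34) was lost. That of miR-99b-5p was lost in 6 of the 10 fits that left out 1 number, also without 3 (1.05), 4 (0.87), 5 (1.03), 13 (0.74) and 14 (0.89), with edgeR adjusted p of 0.0504 to 0.178. The neighbours let-7e-5p (1.49), its opposite strand let-7e-3p (1.35, edgeR adjusted p = 0.030) and let-7a-5p (1.61) were also higher in LAR, whereas miR-99a-3p, the opposite strand of miR-99a-5p, was lower (-1.32). Over all tissues LAR against TERM called 2 of 39 tests of the let-7 partners higher, and 3 of 115 tests of opposite strands higher and 1 lower.

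**Figure D5:**
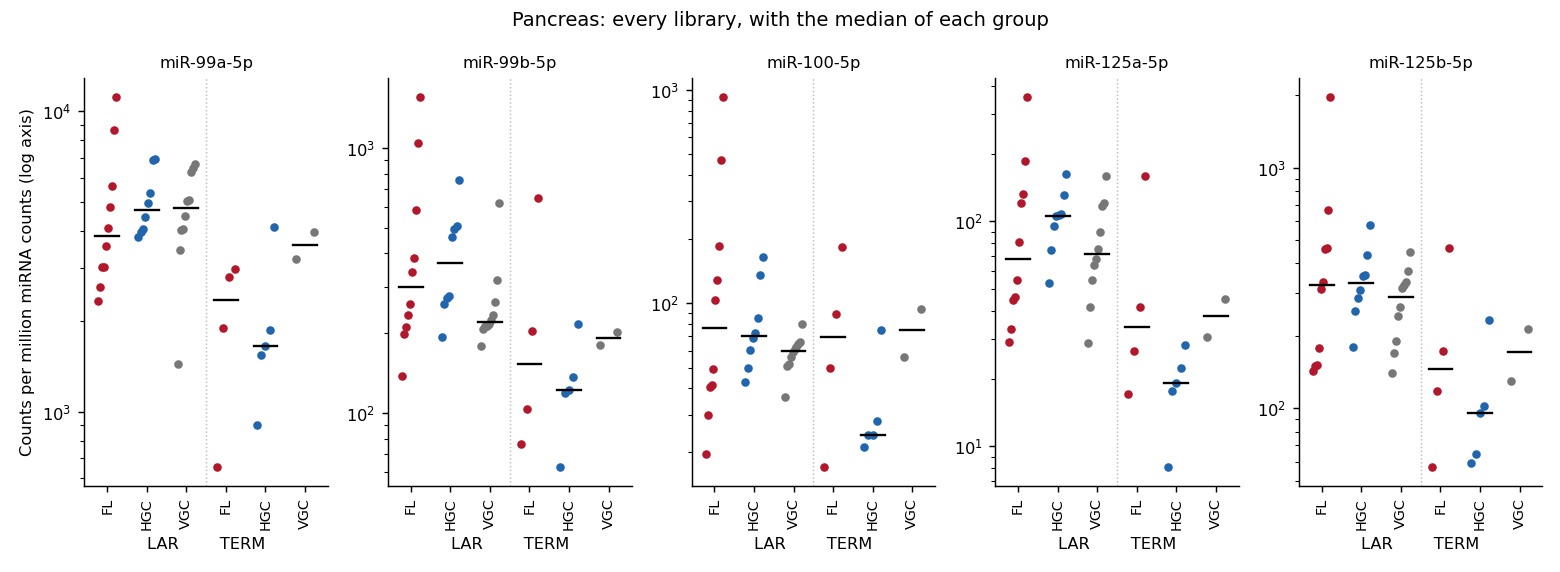
Level of the members in pancreas by arm, LAR beside TERM, in CPM on a log axis, with 1 point per library. The median of miR-125a-5p is 85.5 CPM in 28 libraries of LAR and 26.4 CPM in 11 of TERM, and the groups overlap.

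The remaining calls were miR-100-5p in MAT and miR-125b-5p in thymus. miR-100-5p in MAT had 49.8, 150 and 469 CPM in 28 libraries of LAR and 51.9, 257 and 684 CPM in 29 of TERM (log2 difference -0.57, SE 0.20, edgeR adjusted p = 0.021). Its call was also lost without mouse number 2 (-0.47) or 3 (-0.48). Its medians by arm were 84.1 and 254 CPM in FL, 133 and 206 CPM in HGC, and 154 and 278 CPM in VGC. Scaled to the total of 7 RNA classes in place of TMM factors the difference was 0.12 and not called, and 37.5% of all miRNAs tested in MAT passed this contrast. There miR-351-5p was also lower in LAR (-1.41), while miR-125b-2-3p (1.04) and miR-99a-3p (1.24) were higher. miR-125b-5p in thymus had 146, 446 and 1128 CPM in 30 libraries of LAR and 22.8, 249 and 625 CPM in 28 of TERM (0.59, SE 0.19, edgeR adjusted p = 0.033). By arm its medians were 499 and 183 CPM in FL, 414 and 317 CPM in HGC, and 365 and 318 CPM in VGC. This call was lost with DESeq2, with RLE factors and without the filter on low counts, and in 9 of 10 fits that left out 1 mouse number (lowest 0.41). Without the pools named above all 5 members passed in thymus, where 30.9% of all miRNAs tested did. In MAT DESeq2 called 4 members lower in LAR, miR-99b-5p (-0.80), miR-100-5p (-0.71), miR-125a-5p (-0.78) and miR-125b-5p (-0.67), where it called 38.4% of all miRNAs tested, and the same 4 passed with RLE factors and with the miRNA total alone. Without the pools, in MAT, miR-125a-5p passed beside miR-100-5p (-0.68, SE 0.28, edgeR adjusted p = 0.045), where 42.8% did. Those pools hold 13 of the 57 MAT libraries, so most of the 46 with another tissue's profile stayed in that fit.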

How the data were processed

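As the study's methods state, the authors mapped reads to GRCm39 and miRBase 22.1 with miRMaster 2.0. The miRNA values the authors deposited are estimated counts without normalization, 0.790% of them with a fraction. Of the 18 listed miRNAs only miR-125b-5p, let-7a-5p and let-7c-5p, each with more than 1 hairpin, carried fractions. Whether near-identical miRNAs such as miR-99a-5p and miR-100-5p exchanged reads was not tested. The other 6 RNA classes are deposited as whole counts and entered the 7-class total alone (9.15 to 428 M per library). Circular and scaRNA tables were not used. Groups came from the sample labels, and pools from the study's sample list.

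Levels are CPM over miRNA counts, with 1 added before log2. For tests, values were rounded to whole counts. edgeR 4.0.16 (R 4.3.3) fitted 1 quasi-likelihood model with TMM factors per tissue and extraction for arms and ages, 1 per tissue for LAR against TERM and 1 per extraction for tissues. A miRNA was kept when 10% or more of the libraries of some group had 5 or more reads of it, and calls were made at a Benjamini-Hochberg adjusted p under 0.05 over all miRNAs tested. Composition and neighbouring tissues were compared by two-sided permutation tests, exact or with 100000 resamples. DESeq2 1.42.0, other scalings, no filter, a replicate block, the pools and each mouse number left out were tried. The fits were tested on simulated counts. Python 3.11.15, numpy 2.4.6, pandas 2.3.3, scipy 1.17.1 and matplotlib 3.10.9 were used for the rest. In 2828 pairs of libraries within groups no 2 agreed within sampling noise (lowest chi-square per degree of freedom 47.8).

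Same-numbered mice of FL and HGC did not deviate together (220 pairs, r from -0.69 to 0.87, median 0.0082), so the numbers do not pair the arms. Within an arm and extraction the number is the animal.

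The members, the lists of cluster partners, opposite strands and seed mates, and the tests were chosen with earlier results of these data known. The miRNAs named are the members and those lists, with the 3 most alike to each member across tissues. Each member called by the main edgeR fits between arms, ages or extractions has its medians by arm, and members called under other settings alone do not. Coordinates and sequences are from RefSeq GRCm38.p6, where all 18 listed mature miRNAs were matched.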

Additional observations from a re-analysis of the deposited data

Results flagged for a closer look

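Dixon's test set a library apart in 3 of 32 tests, each of 1 called member in 1 group of 4 to 10 libraries, where chance marks about 5%. The called members of pancreas were tested in the same libraries, so the 32 tests are not independent. miR-99a-5p in VGC pancreas of LAR had 1444 CPM in mouse 14, against a group median of 4761 CPM. miR-99b-5p in the same group had 621 CPM in mouse 13, against a median of 220 CPM. miR-125b-5p in FL thymus of TERM had 22.8 CPM in mouse 1, against a median of 183 CPM, and this library lay in a pool in which more than 1 in 3 libraries had another tissue's profile.

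For miR-99a-3p, the rare opposite strand of miR-99a-5p, edgeR called the interaction of flight and age in heart of TERM, at 2.43 on the log2 scale (SE 0.65, n = 28, edgeR adjusted p = 0.034). At 3 months its medians were 7.11 CPM in 4 FL libraries and 11.8 CPM in 5 of HGC, and at 8 months 8.89 CPM in 5 of FL and 3.44 CPM in 4 of HGC. The counts behind these were 10 to 193 per library. Without such pools the interaction was 2.46 with an adjusted p of 0.79, with the mouse number as a replicate block 2.34 with 0.069, with the miRNA total alone 2.58 with 0.052 and with the 7-class total 3.29 with 0.068. It passed with DESeq2, RLE factors and no filter (adjusted p of 0.0049 to 0.038), and leaving out each mouse number gave adjusted p of 0.012 to 0.16.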

How the results depend on the processing

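Of 181 alternatives, 156 kept the direction and the side of the threshold, or a count within 1.5 times. FL against HGC, HGC against VGC, FL against VGC in TERM, the composition differences of FL and HGC and the tissue contrasts kept theirs under each alternative run. In FL against VGC of LAR, DESeq2 called 1 member, RLE factors 1 and the 7-class total 2 (miR-99b-5p and miR-125a-5p in liver). Between ages in LAR, DESeq2 called 2 and the fit without the pools holding other tissue profiles 4 (background 1.22%). In TERM DESeq2 called 4, the 7-class total 1 and the fit without those pools 2 (background 2.1%). DESeq2 called 1 in the age and flight interaction of LAR and 1 in the difference of the flight contrasts between extractions. In LAR against TERM the count of 6 (background 6.81%) became 11 with the miRNA total alone, 22 with the 7-class total and 11 without those pools (9.53%). The share over all miRNAs was not taken for RLE factors, the miRNA total or the 7-class total, so their counts have no background. In MAT miR-100-5p turned from -0.57 to 0.12 with the 7-class total. Of neighbouring tissues 18 of 60 pairs differed in level under TMM (4 in reversed order) and 55 when scaled to 7 RNA classes (24 reversed), against 11. In composition 10 differed without the replicate block, 2 in LAR alone and 3 in TERM alone, against 5. Scaled to 7 RNA classes the log2 ratio of the tissues highest and lowest in CPM was 1.53 for miR-99a-5p (GAT over spleen), 2.09 for miR-99b-5p and 0.85 for miR-100-5p (GAT over liver), against 3.21, 3.92 and 2.79 in CPM, while the extremes of that scale itself lay further apart, at 4.13, 4.90 and 4.95. The cause of these shifts was not tested.

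Leaving out each mouse number gave 0 to 9 calls in LAR against TERM (0 without number 2, 3 without number 3), 0 to 1 between ages in LAR and in TERM, 47 to 51 in the tissue contrasts of LAR and 39 to 46 in TERM, and 0 in the other comparisons. With the mouse number as a replicate block across arms, 0 members were called in the comparisons of arms and in the interaction, and with the animal as a block the tissue contrasts gave 48 in LAR and 41 in TERM. A paired fit of the ages was not possible because within an extraction each number has 1 age. Of the same-numbered pairs 83 of 220 correlated above 0.1, and 20 libraries correlated best with their own number. The block was not run for LAR against TERM, where equal numbers are different animals. No more than 2 libraries in some groups and a median of 0.866 M miRNA counts in pancreas limit what could be seen there.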

Other observations

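miR-99a-3p in MAT of TERM was lower at 8 than at 3 months, by a log2 difference of -1.63 (SE 0.40, n = 29, edgeR adjusted p = 0.0069), and it passed under each alternative run and with each mouse number left out (adjusted p at most 0.037). By arm its medians at 3 and 8 months were 15.7 and 7.85 CPM in FL, 15.4 and 2.87 CPM in HGC and 11.6 and 12.5 CPM in VGC, so the VGC medians did not share the direction. The counts behind them were low, from 0 to 155 per library. Between ages in MAT of TERM 13.9% of the 933 miRNAs tested passed, 29 higher and 101 lower. Another tissue's profile was found in 9 of 10 FL, 4 of 9 HGC and 9 of 10 VGC libraries there. The guide strand miR-99a-5p was not called there.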
